A study of Mus musculus with 2 samples.

Results

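Genes of 7 acute-phase proteins were examined in lung endothelial cells (ECs): Lcn2, Saa3, Hp, Lrg1, Serpina3n, Serpina3f and Serpina3g. They were chosen by symbol, with earlier results of these data known, and all 7 were found among the 32285 gene rows of both count matrices. The study injected C57BL/6 wild-type mice through the tail vein with PBS (control) or with 400000 cells of B16-F10, a mouse melanoma line, in 100 µl, and took the lungs 6 h later. ECs were sorted as Pecam1+ Ptprc- cells, dye-labelled melanoma cells were collected from the injected lungs, and each group gave 1 single-cell library. The labels give 2 mice per treatment and the paper of the study 3 pooled mice, so the number of animals is not settled. Every difference given here compares 2 libraries, without replicate error or a test, and intervals are 95% intervals for counting error only.

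The acute-phase response is the change in secreted plasma proteins that follows infection or injury, and its main source is the liver. Interleukin-6 family cytokines act through STAT3, and interleukin-1 and tumor necrosis factor act through NF-kB and C/EBP factors, to switch on its genes. Endothelium is known to take part, since LRG1 is secreted by venules and modifies TGF-beta signaling in vessels. Serpina3n, Serpina3f and Serpina3g belong to a family of serine protease inhibitors that was duplicated in the mouse and corresponds to 1 human gene, SERPINA3.

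In GENCODE M21 on GRCm38, all members are protein-coding genes. Lcn2 lies on chromosome 2 (32384633-32388252), Saa3 on chromosome 7 (46711998-46715700), Hp on chromosome 8 (109575128-109579172) and Lrg1 on chromosome 17 (56119678-56122001), all on the minus strand. The 3 serpins lie on the plus strand of chromosome 12, Serpina3f at 104214544-104221129, Serpina3g at 104236245-104241939 and Serpina3n at 104406729-104414329, within a stretch of 14 annotated Serpina3 genes and pseudogenes. Serpina3f and Serpina3g had similar log2 ratios between the libraries in gCap-, aCap- and artery-like ECs. Serpina3n was also higher after injection in gCap-, aCap- and vein-like ECs, but its highest level was in LEC-like ECs. The 250 bases before the first start site of each of the 3 genes are shown from RefSeq (GRCm38.p6), 5′ to 3′. They cover chr12:104214294-104214543, chr12:104235897-104236146 and chr12:104406458-104406707 on the plus strand. Capitals mark matches to TTCNNNGAA, the letters that STAT factors are known to bind, or to TTNNGCAA, a C/EBP core, on either strand.
Serpina3f: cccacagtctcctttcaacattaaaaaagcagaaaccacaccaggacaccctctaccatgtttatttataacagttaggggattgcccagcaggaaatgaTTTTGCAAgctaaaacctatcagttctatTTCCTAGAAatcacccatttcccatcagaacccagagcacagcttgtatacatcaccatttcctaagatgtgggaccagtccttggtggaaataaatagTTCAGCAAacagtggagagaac
Serpina3g: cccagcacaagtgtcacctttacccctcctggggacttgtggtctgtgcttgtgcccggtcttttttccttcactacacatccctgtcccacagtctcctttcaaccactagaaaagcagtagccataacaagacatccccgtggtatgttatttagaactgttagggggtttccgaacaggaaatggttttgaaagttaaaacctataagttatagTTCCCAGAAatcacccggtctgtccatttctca
Serpina3n: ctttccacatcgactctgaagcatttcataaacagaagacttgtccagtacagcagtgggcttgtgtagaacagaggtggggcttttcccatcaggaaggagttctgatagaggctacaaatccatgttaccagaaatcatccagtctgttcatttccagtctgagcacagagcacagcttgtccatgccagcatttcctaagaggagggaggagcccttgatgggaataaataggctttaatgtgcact
The Serpina3f and Serpina3g sequences were identical at 126 of 152 aligned bases (82.9%), with TTCCTAGAA at -121 to -113 in Serpina3f and TTCCCAGAA at -33 to -25 in Serpina3g. Serpina3n held neither motif and was identical to Serpina3f at 162 of 231 aligned bases (70.1%). Among the 6 members with a promoter in the table (300 bases, 250 before and 50 after the start), 2 held TTCNNNGAA, 3 held TTNNGCAA and 0 held GGANTTNCC, an NF-kB core. Of 32851 promoters of that length, 8.30%, 10.8% and 3.95% held these motifs. No match overlapped another, and a match describes letters only.

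Because the serpins are close copies, the reads that could be assigned to more than 1 of them were counted from the transcripts. The longest coding transcripts of Serpina3f and Serpina3g were identical at 88.8% of aligned bases. Of words of 91 bases, 4.40% of Serpina3f, 6.19% of Serpina3g and 0.659% of Serpina3n words also occurred in another Serpina gene. This word length was set in advance, and the paper gives a slightly shorter cDNA read. In the last 500 bases, where most reads of a 3′ library fall, 0 words were shared for each of the 3 genes. Reads in introns, if counted, were not covered by this comparison.

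The libraries held 85794655 (control) and 104978816 (B16-F10) unique molecular identifiers (UMIs), each of which marks 1 captured RNA molecule, and 7830 and 7767 cells with 1000 to 5000 genes were kept. Clusters were named by markers as general capillary (gCap-like, 4893 control and 4493 B16-F10 cells), aerocyte capillary (aCap-like, 1459 and 978), artery-like (196 and 141), vein-like (313 and 297) and lymphatic (LEC-like, 47 and 48) ECs. The largest gCap-like clusters differed between the libraries (0 and 4 in control with 1669 and 1087 cells, 5 and 2 in B16-F10 with 1074 and 958 cells), so values within clusters are given below. Clusters with markers of ECs and of another cell type were called mixed and kept apart (866 and 1269 cells). Levels are counts per 1000000 UMIs (CPM) of the summed cells of a class. Free RNA, the RNA of broken cells that enters every droplet, was read from barcodes of 1 to 100 UMIs, and its share in gCap-like sums was estimated at 2.20% and 3.14%. Only 36 barcodes with at least 300 genes occurred in both libraries.

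The members fell into separate groups by the cells that held their UMIs. Lcn2 was mainly lymphatic, Hp mainly epithelial and myeloid, Lrg1 venous and capillary, and Serpina3f and Serpina3g were spread over all blood vessel classes. The LEC-like class, at 0.600% and 0.618% of all cells kept, held 84.5% and 51.9% of the Lcn2 UMIs. Epithelial-like cells, 23 and 27 in number, held 78.0% and 49.5% of the Hp UMIs. Saa3 gave only 42 UMIs in all kept control cells and 61 in all kept B16-F10 cells.

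**Figure D1:**
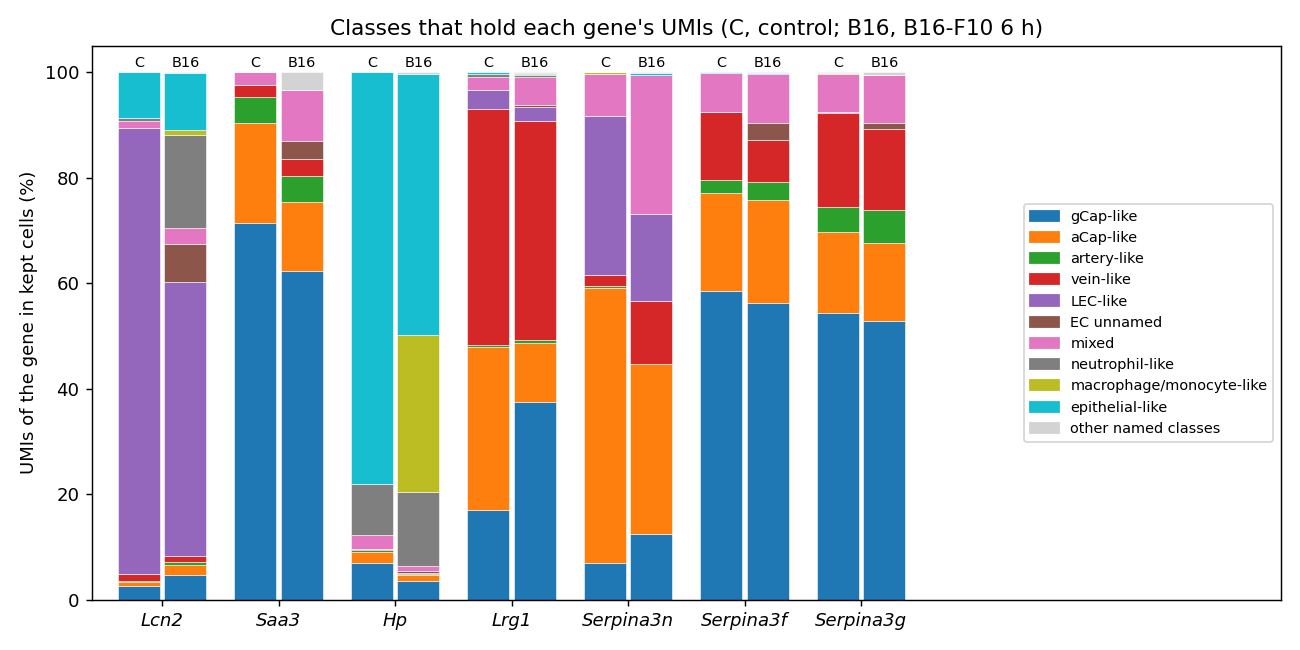
Share of the UMIs of each gene (y axis, percent of the gene's UMIs in kept cells) held by each cell class, in the control (C) and the B16-F10 6 h (B16) library. LEC-like cells hold 84.5% and 51.9% of Lcn2, epithelial-like cells 78.0% and 49.5% of Hp, and gCap-like cells 17.1% and 37.5% of Lrg1.

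In gCap-like ECs, 5 of the 7 members were at least 2-fold higher in the B16-F10 library, and 0 were 2-fold lower. Of 13195 genes with at least 50 UMIs, 3.13% were 2-fold higher and 2.6% were 2-fold lower. The median log2 ratio of the members was 1.31, beside -0.04 over all genes compared. The members were chosen with earlier results of these data known, so these contrasts describe them and test nothing about the family. For 1 of these 5, Lcn2, the level stayed below the supply from free RNA in both libraries, as given below. In LEC-like ECs 0 of 3 compared members were 2-fold higher, beside 2.05% of the 3714 genes compared there. Melanoma markers in gCap-like ECs went from 1.34 to 32.8 CPM (7 of 8 higher, 0 at 0) and in free RNA from 2.12 to 876 CPM, while 78 melanoma-like cells held at most 7.10 CPM of any member. Macrophage/monocyte markers in gCap-like ECs went from 17.01 to 34.1 CPM (7 of 8 higher, 0 at 0), and their part in the results was not tested.

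Lrg1, a secreted leucine-rich glycoprotein, was over 2-fold higher after injection in gCap-like ECs. It gave 681 UMIs in control and 3992 UMIs after melanoma cell injection, or 19.0 (17.6 to 20.5) and 104 (100.4 to 106.9) CPM. The log2 ratio was 2.44 (2.33 to 2.56), a 5.44-fold difference. Free RNA could supply 1.41 and 5.55 CPM, and the log2 ratio after subtraction was 2.48. In cells thinned to 2000 UMIs each, an Lrg1 UMI was found in 120 of 4830 (2.48%) and 482 of 4463 (10.8%). Without thinning the shares were 6.32% and 22.8%. Among the lymphocyte-like cells left after sorting, 0 of 16 in control, which allows a share of up to 18.8%, and 2 of 68 after injection (2.94%) held one, at median depths of 8518.5 and 7411 UMIs beside 7175 and 8333 in gCap-like ECs.

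The level of Lrg1 differed widely between vessel classes. Its control level was 542 CPM in vein-like, 365 in LEC-like, 93.4 in aCap-like, 19.0 in gCap-like and 11.3 in artery-like ECs, and the intervals of the last pair overlapped. In the B16-F10 library vein-like ECs reached 1323 CPM and LEC-like ECs 586, followed by aCap-like at 110, gCap-like at 104 and artery-like ECs at 53.7, and aCap-like and gCap-like ECs could not be told apart by counting error. The log2 ratio was 1.29 (1.21 to 1.37) in veins, 2.25 (1.47 to 3.10) in arteries and 0.68 (0.39 to 0.98) in LEC-like ECs. In veins the gene was found in most cells, with at least 5 UMIs in 109 of 313 control and 201 of 297 B16-F10 cells. In gCap-like ECs such cells numbered 35 and 242, and they held 42.0% and 64.8% of the Lrg1 UMIs there. Without the 1% of gCap-like cells richest in Lrg1, the log2 ratio was 2.97. After thinning, 42.2% and 71.4% of vein-like, 14.5% and 17.2% of aCap-like, 34.04% and 58.3% of LEC-like and 1.57% and 4.29% of artery-like cells held an Lrg1 UMI.

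In aCap-like ECs, the capillary cells of gas exchange, the summed Lrg1 level differed little, 93.4 (88.3 to 98.8) against 110 (103 to 116) CPM, a log2 ratio of 0.23 (0.11 to 0.35). Within each of the 3 aCap-like clusters the ratio was larger, at 0.99 in cluster 7, 0.94 in cluster 8 and 0.84 in cluster 9. Cluster 8, with the highest Lrg1 level of the 3 (121 and 232 CPM), held 675 control but 120 B16-F10 cells, and cluster 7, with 47.3 and 94.2 CPM, held 182 and 776. The class sums of the 2 libraries thus held different mixtures of these clusters. In gCap-like ECs the log2 ratio of Lrg1 ran from 0.49 in cluster 5 (80 control and 1074 B16-F10 cells, 144 and 202 CPM) to 3.99 in cluster 12, and the interval lay above 0 in all 7 clusters.

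**Figure D2:**
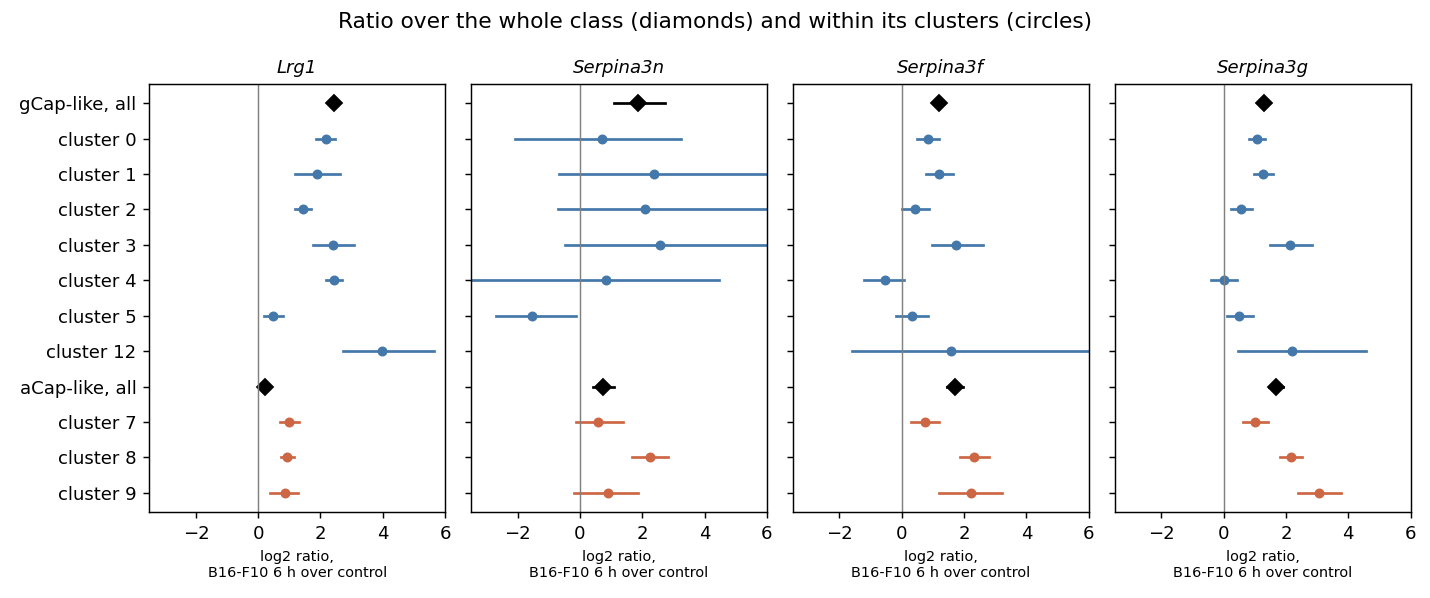
Log2 ratio of CPM, B16-F10 6 h over control (x axis), over a whole class (diamonds) and within each of its clusters (circles), with 95% counting intervals; intervals that leave the axis are wider than drawn, and sums with 0 UMIs in a library are not drawn. Lrg1 is at 0.23 over all aCap-like ECs but at 0.84 to 0.99 within their clusters, and Serpina3g is at 0.02 in cluster 4.

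Serpina3g, an inhibitor that acts inside the cell on cathepsins, and its neighbor Serpina3f were higher together in blood vessel ECs. In gCap-like ECs Serpina3g gave 879 and 2340 UMIs, or 24.6 (23.0 to 26.2) and 60.7 (58.3 to 63.2) CPM, a log2 ratio of 1.31 (1.19 to 1.42). Serpina3f gave 517 and 1275 UMIs, or 14.4 (13.2 to 15.7) and 33.1 (31.3 to 34.95) CPM, a log2 ratio of 1.20 (1.05 to 1.35). Both lay above their free RNA supply, which was at most 2.18 CPM. Cells with at least 5 Serpina3g UMIs numbered 31 and 151 and held 22.1% and 53.6% of its UMIs, and those with at least 5 Serpina3f UMIs numbered 11 and 74. After thinning, 3.75% and 7.80% of gCap-like cells held a Serpina3g UMI, and 2.07% and 4.28% a Serpina3f UMI. Without thinning the shares were 9.52% and 16.8%, and 6.15% and 10.6%. In LEC-like ECs, Serpina3g was found in 1 of 47 cells in control and in 0 of 48 after injection, and Serpina3f in 0 of either, which allows shares of up to 6.38% and 6.25%. The median depths there were 8210 and 9844.5 UMIs. Lymphocyte-like cells are no background for Serpina3g, since 2 of 16 and 11 of 68 held it.

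The order of the vessel classes was not the same for both serpins. Serpina3g in control stood at 87.8 CPM in vein-like, 51.9 in artery-like, 24.6 in gCap-like and 18.9 in aCap-like ECs. In the B16-F10 library artery-like ECs stood at 214 CPM and vein-like ECs at 204 CPM, and the 2 intervals overlapped, while aCap-like ECs stood at 60.8 and gCap-like ECs at 60.7 CPM, which overlapped as well. Serpina3f in control stood at 34.7 CPM in vein-like ECs, while gCap-like (14.4), artery-like (13.98) and aCap-like ECs (12.5) overlapped. After injection it stood at 55.97 CPM in artery-like, 55.2 in vein-like, 40.8 in aCap-like and 33.1 in gCap-like ECs. In artery-like ECs of that library 1 of 141 cells held 25 of the 74 Serpina3f UMIs, and the remaining UMIs gave 37.1 CPM. The artery-like Serpina3f level and its ratio to control thus lean on 1 cell. The log2 ratios of Serpina3g were 2.04 (1.68 to 2.42) in artery-like, 1.69 (1.47 to 1.90) in aCap-like and 1.22 (1.02 to 1.42) in vein-like ECs. Those of Serpina3f were 2.00 (1.29 to 2.77), 1.71 (1.44 to 1.97) and 0.67 (0.32 to 1.02) in the same order. Of the aCap-like ECs, 9 of 1459 control and 43 of 978 B16-F10 cells had at least 5 Serpina3g UMIs. They held 21.7% and 64.4% of its UMIs. In those 43 cells T and NK cell markers stood at 75.2 CPM, beside 1.65 CPM in the other 935. For Serpina3f 6 and 25 such cells held 26.1% and 50.7%. The part of lymphocytes in these values was not tested. Among genes with at least 50 UMIs, the share that was 2-fold higher was 1.74% in artery-like, 2.09% in aCap-like and 1.55% in vein-like ECs, where 3 of 3, 2 of 4 and 3 of 4 compared members were.

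The ratio of the serpin pair depended on the gCap-like cluster. In cluster 4 (1087 control and 189 B16-F10 cells) Serpina3g stood at 33.8 and 34.3 CPM, and Serpina3f at 20.9 and 14.3 CPM, a log2 ratio of -0.54 (-1.21 to 0.06). In the same cluster Lrg1 differed by 2.44 (2.18 to 2.70). Of the gCap-like clusters, cluster 5 carried the highest Serpina3g levels, 84.4 and 120 CPM, and the highest Serpina3f levels, 55.2 and 68.6 CPM. In the 3 aCap-like clusters the Serpina3g ratio was 1.02, 2.17 and 3.08. Over the 7 gCap-like clusters the median within-cluster log2 ratio was 1.07 for Serpina3g and 0.84 for Serpina3f.

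**Figure D3:**
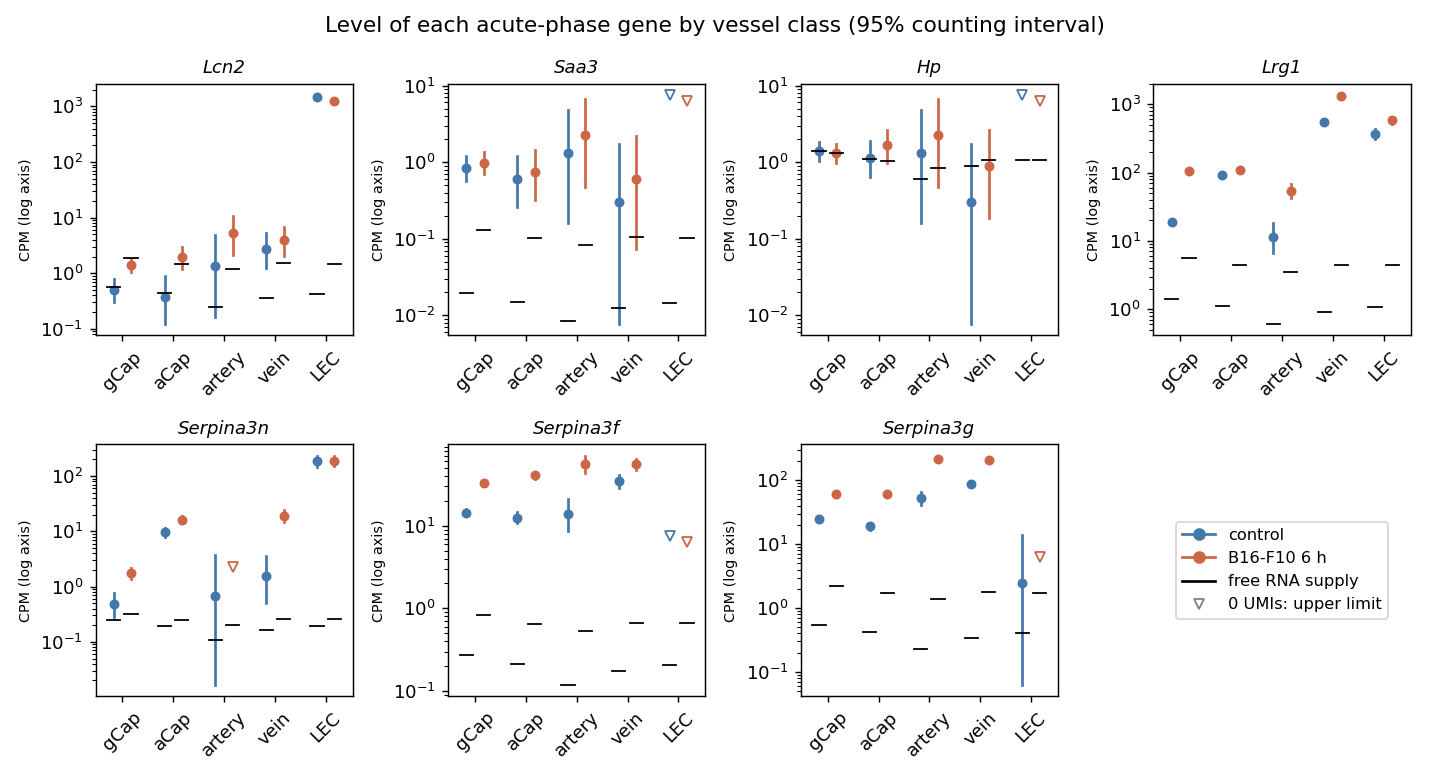
CPM (log axis) of each gene in 5 vessel classes of the control and B16-F10 6 h library, with 95% counting intervals; black lines are the level that free RNA could supply, and open triangles are the level of 3 UMIs, the limit that a sum with 0 UMIs allows. Lcn2 and Hp in gCap-like ECs sit near or below the free RNA line, while Lrg1 in vein-like ECs reaches 542 and 1323 CPM.

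Serpina3f and Serpina3g were found in the same cells more often than their separate frequencies give. Among thinned gCap-like cells of the control library, 24 held both, beside 3.75 if the genes were unrelated. In the B16-F10 library 75 held both, beside 14.9. For Lrg1 with Serpina3g the numbers were 2 beside 4.497 in control and 51 beside 37.6 in the B16-F10 library. These counts come from cells of 1 library each and carry no test. At least 1 of the 7 genes was found in 8.14% and 20.5% of gCap-like cells at this depth, and in 50.8% and 75.8% of vein-like, 19.97% and 26.7% of aCap-like, 8.90% and 31.4% of artery-like and 85.1% and 87.5% of LEC-like cells.

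Serpina3n, which inhibits secreted serine proteases such as granzyme B, had another pattern than its paralogs. It was highest in LEC-like ECs, at 185 (145 to 232) and 188 (151 to 232) CPM, a log2 ratio of 0.03 (-0.43 to 0.49). In aCap-like ECs it stood at 9.63 (8.03 to 11.5) and 16.2 (13.9 to 18.7) CPM, a log2 ratio of 0.75 (0.41 to 1.09). In gCap-like ECs 17 and 67 UMIs gave 0.475 and 1.74 CPM, a log2 ratio of 1.87 (1.09 to 2.73), beside a free RNA supply of 0.252 and 0.321 CPM. Within gCap-like cluster 5, which held 7 and 39 of these UMIs, the level was 11.4 and 3.92 CPM and the log2 ratio -1.53 (-2.71 to -0.13), the opposite direction. The 7 control UMIs came from 2.5% of the 80 control cells of this cluster. In control 1 gCap-like cell held 6 Serpina3n UMIs and no other held more than 1, so this reversal rests on 1 cell. In the other gCap-like clusters with UMIs in both libraries the log2 ratio was 0.69 to 2.57 from at most 11 UMIs per library, each with 0 inside its interval. Artery-like ECs held 1 UMI in control and 0 after injection.

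In vein-like ECs Serpina3n went from 5 to 64 UMIs, 1.52 (0.495 to 3.56) to 19.2 (14.8 to 24.5) CPM, a log2 ratio of 3.66 (2.36 to 5.33). In the B16-F10 library 5 of 297 cells held 81.2% of these UMIs, with a maximum of 22 in 1 cell. Their vein markers stood at 5612 CPM and their mural markers at 113 CPM, beside 5989 and 69.6 CPM in the other 292 cells. In aCap-like ECs of the B16-F10 library 14 of 978 cells held 54.9% of the Serpina3n UMIs, while in control 1 of 1459 cells held at least 5 UMIs. These 14 cells stood at 4164 CPM for aCap, 629 for LEC and 31.7 for mural markers, beside 5469, 417 and 11.2 CPM in the others. The part of other cell types in these values was not tested.

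Lcn2, which binds bacterial siderophores and is stored in neutrophil granules, was a lymphatic gene among these ECs. LEC-like ECs held 589 UMIs in the control and 600 in the B16-F10 library, or 1473 (1356 to 1597) and 1256 (1157 to 1360) CPM. The log2 ratio was -0.23 (-0.40 to -0.06), an interval just below 0 for counting error, and 89.4% and 91.7% of the cells held a UMI. After thinning the shares were 76.6% and 68.8%. Neutrophil markers in LEC-like ECs gave 0 CPM in control and 14.7 CPM in the B16-F10 library, with 4 of 8 markers at 0 in both.

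In capillary ECs the Lcn2 level was not above free RNA beyond counting error. The gCap-like sums held 18 and 54 UMIs, 0.503 (0.298 to 0.795) and 1.40 (1.05 to 1.83) CPM, while free RNA could supply 0.567 and 1.85 CPM. The log2 ratio of 1.48 (0.69 to 2.34) stood beside Lcn2 levels in free RNA itself of 25.7 and 58.9 CPM. Neutrophil markers in free RNA went from 34.4 to 265 CPM, and in gCap-like ECs from 2.79 to 8.30 CPM, with 6 of 8 higher and 0 of 8 at 0. In aCap-like ECs 5 and 21 UMIs gave 0.379 and 1.94 CPM, beside a supply of 0.441 and 1.46. In vein-like ECs 9 and 13 UMIs gave 2.74 (1.25 to 5.21) and 3.90 (2.08 to 6.67) CPM, above a supply of 0.361 and 1.498 CPM, with a log2 ratio of 0.51 (-0.83 to 1.91). Artery-like ECs held 2 and 7 UMIs, and the B16-F10 level of 5.29 (2.13 to 10.9) CPM lay above a supply of 1.18 CPM. Neutrophil-like cells of the B16-F10 library, 16 in number, held 205 Lcn2 UMIs. A UMI was found in 0.368% and 1.07% of gCap-like cells, and no gCap-like cell held more than 3. In lymphocyte-like cells it was found in 0 of 16 and 0 of 68, which allows shares of up to 18.8% and 4.41%.

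Hp, which binds free hemoglobin, was at the free RNA level in gCap-like ECs. The sums held 50 and 51 UMIs, 1.40 (1.04 to 1.84) and 1.32 (0.985 to 1.74) CPM, and free RNA could supply 1.40 and 1.32 CPM. The log2 ratio was -0.08 (-0.67 to 0.51). Epithelial-like cells stood at 1625 and 2195 CPM, and in the B16-F10 library 33 macrophage/monocyte-like cells held 29.8% of all Hp UMIs and 16 neutrophil-like cells 14.0%. LEC-like ECs held 0 Hp UMIs in both libraries, where a count of 0 allows up to 7.501 and 6.28 CPM.

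Saa3, a serum amyloid A of extrahepatic tissue, was barely detected. The gCap-like sums held 30 and 38 UMIs, 0.838 (0.565 to 1.20) and 0.986 (0.698 to 1.35) CPM, above a free RNA supply of 0.019 and 0.128 CPM. The log2 ratio was 0.23 (-0.49 to 0.98), so a difference was not detectable at this depth. A UMI was found in 0.613% and 0.734% of gCap-like cells, and 1 B16-F10 cell held 6 of the 38 UMIs.

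**Figure D4:**
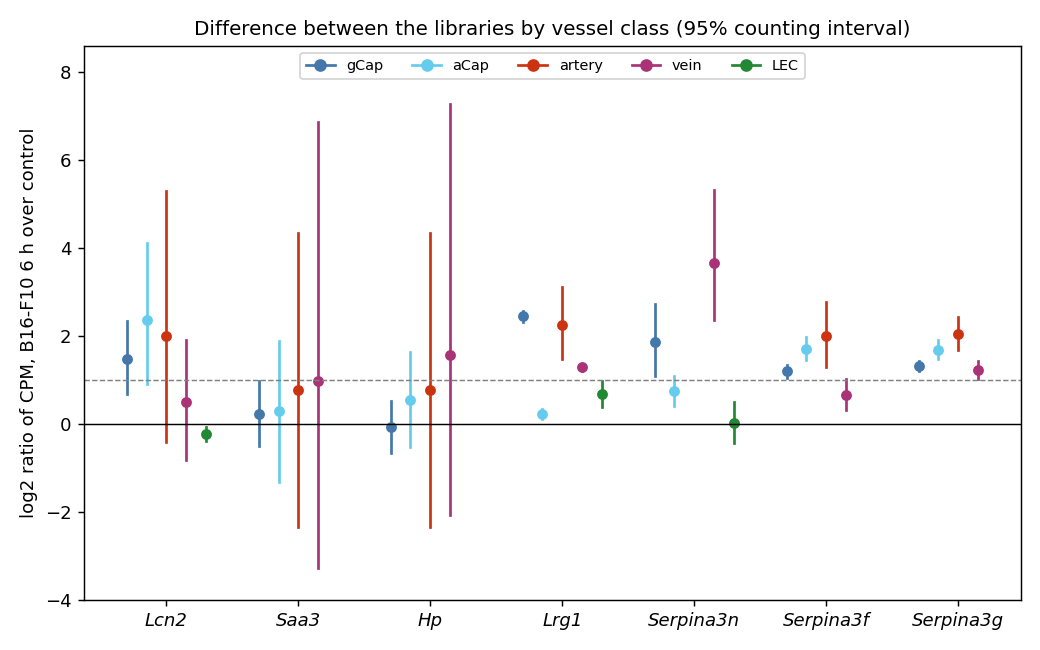
Log2 ratio of CPM, B16-F10 6 h over control (y axis), for each gene in 5 vessel classes with 95% counting intervals; the dashed line marks a 2-fold difference, and sums with 0 UMIs in a library are not drawn. Lrg1 is at 2.44 in gCap-like and 0.23 in aCap-like ECs, and Lcn2 in LEC-like ECs is at -0.23.

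The study named a reactive capillary state (rCap) among gCap cells of metastatic lungs, and the members were followed along it. Each thinned gCap-like cell was scored by its UMIs of the study's 50 rCap markers, none of which is a member. The marker list was chosen partly on these libraries. In 4 bins of equal size within each library, Lrg1 went from 5.79 CPM in the lowest to 33.1 in the highest control bin, and from 26.4 to 192 in the B16-F10 library. Serpina3g went from 14.1 to 35.6 and from 15.7 to 119 CPM. Serpina3f went from 5.38 to 23.6 and from 7.17 to 61.0 CPM. For Serpina3n, Lcn2, Saa3 and Hp the bins held too few UMIs to order.

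**Figure D5:**
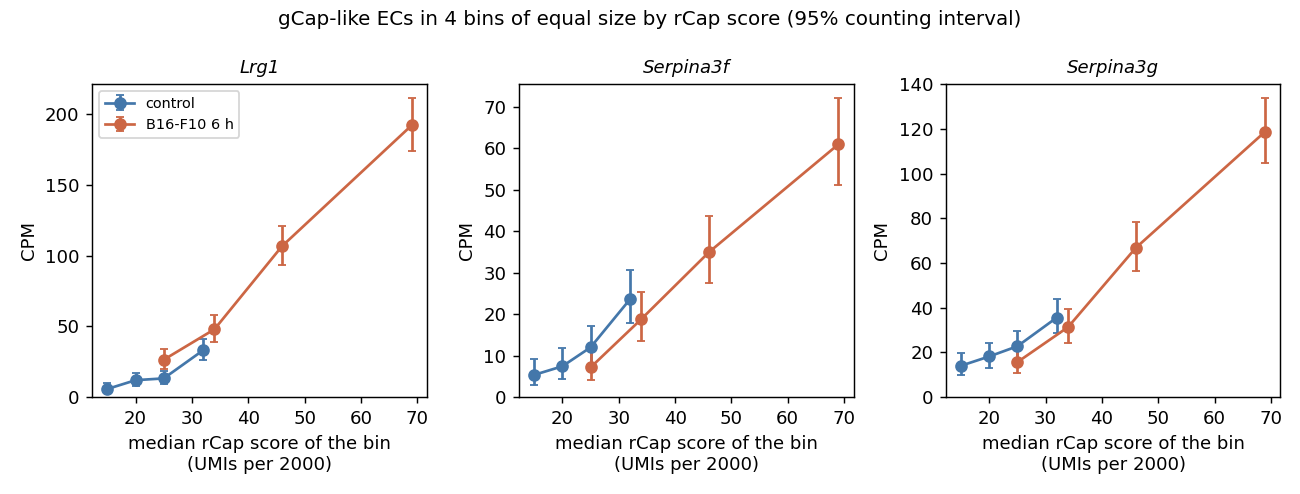
CPM (y axis) of Lrg1, Serpina3f and Serpina3g in gCap-like ECs against the median rCap score (x axis, UMIs of rCap markers per 2000 UMIs) of 4 bins of equal cell number, with 95% counting intervals. Lrg1 rises to 33.1 CPM in the control and 192 CPM in the B16-F10 library, and the score ranges of the libraries overlap in part.

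Cells of equal score were compared in 3 windows, which left out 660 control and 1837 B16-F10 cells, most of the latter (1801) with scores above the windows. Between scores of 25 and 34, Lrg1 stood at 17.4 CPM in 1439 control cells and 31.5 CPM in 1221 B16-F10 cells, a log2 ratio of 0.86 (0.33 to 1.40). The log2 ratio was 0.93 (0.09 to 1.71) between 15 and 24 and 0.88 (0.25 to 1.58) between 35 and 44. Serpina3g had ratios of -0.57 (-1.58 to 0.30), -0.18 (-0.70 to 0.32) and 0.31 (-0.34 to 1.01) in these windows, each with 0 inside its interval. Serpina3f had ratios of -1.08 (-3.02 to 0.38), -0.12 (-0.83 to 0.58) and 0.43 (-0.43 to 1.39). Between 25 and 34, Hp had 2 and 9 UMIs, a log2 ratio of 2.41 (0.13 to 5.66), and Serpina3n 0 and 5 UMIs. Between 15 and 24, Hp had 13 and 1 UMIs, a log2 ratio of -1.32 (-6.73 to 1.41), the opposite direction. Between 35 and 44 its log2 ratio was -0.03. Over all gCap-like ECs Hp stood at its free RNA supply, as given above, so the windows give no direction for Hp. Lcn2, Saa3 and the other windows of Hp and Serpina3n held at most 4 UMIs in the B16-F10 library, with 0 inside each interval that could be formed.

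Other acute-phase proteins were mostly too low to compare. Of 29 such genes, 6 had at least 50 UMIs in gCap-like ECs, and 2 of these 6 were 2-fold higher, beside 3.13% of all genes compared. Their median log2 ratio was 0.60, beside -0.04 over all genes compared. Serping1, the C1 inhibitor, stood at 0.922 and 1.89 CPM (log2 1.04, 0.43 to 1.68). Lbp, which hands endotoxin to CD14 and was chosen after its values were seen, was the most abundant of the list with 58.6 and 98.5 CPM (log2 0.75, 0.67 to 0.83). Of 18 other clade A serpins 0 reached 50 UMIs, and among negative acute-phase proteins only Trf did, at 10.1 and 8.56 CPM.

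Genes of the signals known to induce acute-phase proteins, also listed with earlier results known, were compared in gCap-like ECs without a test. Of 18 compared, 6 were 2-fold higher, beside 3.13% of all genes. Beyond counting error 14 were higher and 3 lower, beside 29% and 34.6% of all genes, and the median log2 ratio was 0.64. Of the 24 genes of the list, 4 (Bcl3, Cebpd, Osmr and Tnfrsf1a) are among the study's rCap markers, which were chosen partly on these libraries. Socs3, a feedback inhibitor of cytokine receptors, stood at 61.8 and 481 CPM (log2 2.96, 2.90 to 3.03). Bcl3, an NF-kB regulator of the IkB family, stood at 18.1 and 118 CPM (2.70, 2.58 to 2.82). Nfkbiz of the same family stood at 7.21 and 33.0 CPM (2.19, 2.00 to 2.39). The C/EBP factor gene Cebpd stood at 294 and 1324 CPM (2.17, 2.14 to 2.20) and Cebpb at 9.39 and 27.6 CPM (1.55, 1.38 to 1.74). Of 12 receptors and partners compared, 1 was 2-fold higher and 0 were 2-fold lower, beside 3.13% and 2.6% of all genes. The 1 was Tlr2, a receptor of bacterial lipoproteins, at 2.54 and 5.86 CPM (1.21, 0.85 to 1.57). Of these 12, 5 were higher and 4 lower beyond counting error, beside 29% and 34.6% of all genes. Their median log2 ratio was 0.06. Of 5 proteases compared, 0 differed 2-fold.

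The likeness of other genes was measured as Pearson's r of log2(CPM + 1) over the 10 sums of 5 vessel classes and 2 libraries, among 11792 genes with at least 200 UMIs. Most like Lcn2 were Il7, Dapk2 and Cpne2 (r = 0.991 each). Most like Lrg1 were Snai1 (0.944), Aqp1 (0.931) and Sema6b (0.924), and most like Serpina3n were Zfp598 (0.980), Emc10 (0.972) and Hapln1 (0.970). Serpina3f was most like Lix1l, Ddah1 and Nuak2 (0.978 to 0.981), and Serpina3g most like G3bp2, mt-Cytb and Gm12703 (0.954 to 0.973). Between members, r ran from -0.866 (Lcn2 and Serpina3f) to 0.963 (Serpina3f and Serpina3g), with Lcn2 and Serpina3n at 0.826. The sums share libraries and the LEC-like sums rest on few cells, so these values describe the order of classes only. Saa3 and Hp had under 200 UMIs and were compared with members only (r = 0.927 with each other).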

How the data were processed

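Lung cells of 2 libraries, 1 per group, were analysed. The authors deposited unfiltered UMI counts for each gene in each barcode. Per the file headers the software was Cell Ranger 7.2.0, and the submitters' processing notes name mm10 and Seurat 4.4.0. The paper names an older Cell Ranger release, the listed barcodes outnumber those of the labelled v2 kit, and whether intron reads were counted is not given in the sources used here; counting them would raise long genes.

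Cells were kept at 1000 to 5000 genes with mitochondrial UMIs below 20%. A neighbour score against simulated doublets, built like Scrublet, removed the top 0.8% per 1000 cells (564 control and 554 B16-F10 cells). After log-transformation at a depth of 10000, 3000 variable genes were chosen with scanpy 1.11.5, of which 2907 stayed after the members and response lists were left out; 30 principal components, 20 neighbours and leidenalg 0.10.2 at resolution 0.8 gave 26 clusters. Classes needed at least 3 markers and 50% of a list, and a marker needed 1.5-fold and 10% of cells. Median depth was 7377 and 8461 UMIs. UMIs were summed per class as CPM, with exact Poisson intervals, exact conditional binomial intervals for ratios (no pseudocount), and Clopper-Pearson intervals for shares. A count of 0 was taken to allow up to 3 counts, for shares and for CPM. The free RNA share was the median over 6 marker lists. The ratio interval and the 2-fold rule were tested on simulated Poisson sums, and thinning was checked for its set depth. The simulated sums did not include UMIs concentrated in few cells. Clustering, class naming, doublet scores and the free RNA share were not tested in this way.

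Members and lists were chosen with earlier results of these data known. Named genes were all members, list genes with at least 50 UMIs, a 2-fold difference and an interval without 0 in gCap-like ECs (up to 5 per list and direction), and the 3 genes most like a member. Alternatives changed cell limits, doublets, resolution, clustering genes, depth, scaling, free RNA and admixed cells. Identity between proteins was not analysed here, and a gene of the acute-phase list is counted but its values are not reported here.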

Additional observations from a re-analysis of the deposited data

Results flagged for a closer look

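The Lcn2 sums had log2 ratios of opposite sign between vessel classes. The ratio was -0.23 in LEC-like ECs, against 1.48 in gCap-like and 2.36 in aCap-like ECs, each with an interval that left out 0. The difference was not tested. The level that free RNA could supply was 0.567 and 1.85 CPM in gCap-like ECs, where the sums stood at 0.503 and 1.40 CPM, 0.441 and 1.46 CPM in aCap-like ECs, where they stood at 0.379 and 1.94 CPM, and 0.428 and 1.48 CPM in LEC-like ECs, where they stood at 1473 and 1256 CPM. The capillary ratios therefore give no direction for Lcn2 in the capillary cells themselves.

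Barcodes with over 100 UMIs and under 300 genes, which no comparison used, held some members at higher levels in the B16-F10 library. The rule listed only members with at least 50 UMIs that were at least 2-fold higher, so lower ones could not appear. The log2 ratio there was 1.39 for Lcn2 (15.7 to 41.2 CPM), 1.47 for Lrg1 (36.9 to 102 CPM), 1.70 for Serpina3f (7.16 to 23.2 CPM) and 1.65 for Serpina3g (14.0 to 43.96 CPM). Of the members not listed, Hp went from 49.8 to 44.4 CPM and Serpina3n from 9.16 to 15.9 CPM. Saa3 had 1 and 47 UMIs.

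Mixed clusters, in which EC markers met those of another cell type, also differed. Lrg1 had log2 ratios of 1.57 in cluster 6 (hemoglobin genes), 2.06 in cluster 11 (platelet genes), 2.12 in cluster 14 (mural genes, where Serpina3f was at -1.09) and 3.41 in cluster 16 (173 control and 32 B16-F10 cells). Cluster 17, with fibroblast genes in the lead, held 59 control and 108 B16-F10 cells, and there the log2 ratio was 5.44 for Lrg1 (1 and 90 UMIs), 4.57 for Serpina3f (1 and 49 UMIs), 3.04 for Serpina3g (3 and 51 UMIs) and 2.77 for Serpina3n (19.5 and 133 CPM). In the B16-F10 library 8 of these 108 cells held 86.6% of the Serpina3n UMIs, and their fibroblast markers stood at 21381 CPM, beside 1365 CPM in the other 100 cells. For Lrg1 4 cells held 78.9% of the UMIs, with gCap markers at 6461 CPM (2965 in the other 104 cells) and fibroblast markers at 246 CPM (3743 in the others). For Serpina3f 2 cells held 75.5% of the UMIs and for Serpina3g 4 cells 54.9%, with fibroblast markers at 387 and 513 CPM.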

How the results depend on the processing

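Of 92 alternative values for the gCap-like log2 ratios of the 7 members, 80 lay inside the counting interval of the value reported and 12 outside; none changed the sign of a 2-fold difference. With all ECs summed, Lcn2 was at 0.24, Lrg1 at 1.29 and Serpina3n at 0.74, which ended the 2-fold difference of Lcn2 and Serpina3n. Left-out admixed cells kept 29.4% of control and 15.6% of B16-F10 gCap-like cells and gave 1.14 for Hp (6 and 7 UMIs), 1.04 for Serpina3f and 0.92 for Lcn2. Serpina3n thinned to 2000 UMIs gave 2.81, and Serpina3g without a maximum of genes 1.496. Medians within clusters and sums without the richest 1% of cells were chosen after seeing the data: the first gave 0.79 for Lcn2, -0.73 for Saa3, 2.16 for Lrg1, 0.84 for Serpina3f and 1.07 for Serpina3g, the second 2.97 for Lrg1. No value exists for Lcn2 and Hp with free RNA subtracted, since the remainder was not above 0, nor for Lcn2, Saa3, Hp and Serpina3n without their richest cells. Lcn2 was 2-fold higher under 9 of 12 alternatives, Serpina3n under 12 of 13, Serpina3f under 13 of 14, and Lrg1 and Serpina3g under all 14. For these changes the cause was not tested. The median of the other acute-phase proteins stayed between 0.20 and 0.63. Of 28 shares of cells with a UMI recomputed at greater depth (thinned to 4000 UMIs or not thinned), 25 moved beyond their interval. Such a share rises with depth, so this describes depth and no other choice of processing. No paired analysis was possible because only 1 library was made for PBS and 1 for B16-F10. Depth limits Saa3, Hp and Lcn2 in capillary ECs.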

Other observations

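EC clusters without a vessel name, 15 and 19, were almost only in the B16-F10 library (8 control and 319 B16-F10 cells), so no ratio was formed. In the B16-F10 library these cells stood at 27.6 CPM for Lcn2, 23.3 for Serpina3f, 16.97 for Serpina3g and 14.3 for Lrg1, with 0 UMIs of Serpina3n. In cluster 15, led by Csf2 and Has2 among others, 4 of 241 cells held 80.3% of the Lcn2 UMIs. Their LEC markers stood at 6932 CPM, beside 4934 CPM in the other cells of the cluster and 12485 CPM in LEC-like ECs of that library. Whether these 4 cells are lymphatic was not tested. For Serpina3f 4 cells held 64.1% of the UMIs of the cluster, with LEC markers at 4167 CPM.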
